A study of Mus musculus with 6 samples.

Results

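Among the 179475 peaks that the Control 1 retina library listed, 12029 regions were shared with the Bmal1 CKO 2 library alone and had their summit at an end of a protein-coding gene. They were chosen by peak calls and summit positions: the Control 1 peak overlapped a Bmal1 CKO 2 peak by at least 1 bp and no peak of the other 4 lists, and its summit (the base with the most stacked fragments) was at most 1 kb from the first or last annotated base of a gene. The 6 lists together held 320474 peaks. Chromatin of mouse retina was precipitated with a rabbit anti-BMAL1 antibody and sequenced (ChIP-seq). The 3 control libraries are wild type, and the 3 others carry a genotype labelled Bmal1 CKO, a conditional knockout. Both genotypes are on the C57BL/6 strain, without external treatment, with weaning at postnatal day 20. The driver of the deletion, the cells it affects, and the age and time of day at collection are not given in the labels, nor whether retinas were pooled. Peaks do not measure expression, so the tissue label could not be checked against marker genes.

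BMAL1 pairs with CLOCK or NPAS2, and the pair binds the E-box CACGTG in promoters and enhancers of clock genes and switches them on. Their products, among them the period and cryptochrome proteins, then block the pair, which closes a daily loop. Promoters at the start of genes used in most cells are often rich in the dinucleotide CG (CpG), lie in open chromatin and can serve a pair of genes that run in opposite directions.

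Both long lists come from 1 library of each genotype, so every region described here was called in a wild-type and in a CKO retina, and no value below has a replicate within its genotype. Fold enrichment is the authors' own value, signal relative to local background within a library, and it was not compared between genotypes by a test. The number of fragments stacked at a summit and the background expected there were recovered from the deposited fold and p-value. The lowest background, a measure of depth across the genome, was 3.46 fragments for Control 1 and 5.83 for Bmal1 CKO 2. It was 2.78 for Bmal1 CKO 1 and 0.560 to 0.852 for the other 3 libraries. Absence from the 4 short lists is part of the rule. Scaled from Control 1 to the depth of Bmal1 CKO 1, 10534 of the 12029 regions (87.6%) would still have reached 5.45, the smallest −log10 p-value listed there. Scaled from Bmal1 CKO 2 the number was 4079 (33.9%). For the other 3 short lists the share was 0.374% to 6.33% from Control 1 and 0.00831% to 0.125% from Bmal1 CKO 2. This scaling takes the lowest background as depth and starts from regions chosen by the calls themselves. The shares are therefore descriptions, and the part of depth in the absence from the short lists was not tested.

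The promoter sequences of 4 clock genes with such a region at their start are shown because they hold the E-box. Each run is the 250 bases before the RefSeq start (GRCm38.p6, the assembly of mm10), read 5′ to 3′ along the gene, and capitals mark CACGTG.
Ciart (chr3:95882229-95882478, minus strand): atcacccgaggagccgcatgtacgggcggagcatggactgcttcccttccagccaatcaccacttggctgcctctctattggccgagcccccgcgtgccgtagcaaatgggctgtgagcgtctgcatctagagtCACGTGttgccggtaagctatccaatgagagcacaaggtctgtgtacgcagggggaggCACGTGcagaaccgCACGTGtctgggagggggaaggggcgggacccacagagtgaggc
Cry1 (chr10:85185055-85185304, minus strand): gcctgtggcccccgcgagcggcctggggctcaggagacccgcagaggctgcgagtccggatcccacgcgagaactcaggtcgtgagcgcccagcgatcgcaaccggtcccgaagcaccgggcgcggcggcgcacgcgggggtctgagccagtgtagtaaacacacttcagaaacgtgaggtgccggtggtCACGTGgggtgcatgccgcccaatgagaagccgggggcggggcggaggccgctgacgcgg
Bhlhe41 (chr6:145865421-145865670, minus strand): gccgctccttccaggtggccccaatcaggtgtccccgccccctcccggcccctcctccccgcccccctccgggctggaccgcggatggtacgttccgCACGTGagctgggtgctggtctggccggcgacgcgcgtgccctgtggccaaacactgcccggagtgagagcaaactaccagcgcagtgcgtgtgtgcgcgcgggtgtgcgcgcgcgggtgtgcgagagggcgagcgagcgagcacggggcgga
Tef (chr15:81802423-81802672, plus strand): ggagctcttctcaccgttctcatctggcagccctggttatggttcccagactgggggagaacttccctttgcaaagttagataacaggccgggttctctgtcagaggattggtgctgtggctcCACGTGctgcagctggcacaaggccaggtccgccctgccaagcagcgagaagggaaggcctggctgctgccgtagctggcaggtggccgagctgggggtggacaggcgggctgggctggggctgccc
Ciart, which encodes a repressor of CLOCK and BMAL1, has 3 E-boxes there. Cry1 (a cryptochrome), Bhlhe41 (an E-box binding repressor) and Tef (an output factor) have 1 each. Of the 9 clock genes with a region at the start and a promoter in the table, these 4 held an E-box, and Cry2, Per3, Hlf, Nr1d2 and Rorb held none in this window. Over 300 bases, 250 before and 50 after the start, 7.93% of all promoters and 10.8% of those with a region held one. Only 1 clock gene without a region at the start had a promoter in use, so the class was not compared within itself.

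A second set shows promoters picked from both ends of the range of CG content, so it does not show how common each kind is. They were picked among the strongest genes of their gene lists, by the lower fold, with a region at the start. Of the 7090 promoters with a region, 73.3% had a ratio of observed to expected CG (defined below) of at least 0.6. Capitals mark CG. Med6 encodes a subunit of Mediator, the complex that links transcription factors to RNA polymerase II, and Rpl22l1 a relative of a ribosomal protein. Cngb1 encodes a subunit of the rod photoreceptor channel, and Krtap31-1 a keratin-associated protein of hair.
Med6 (chr12:81595009-81595258, minus strand): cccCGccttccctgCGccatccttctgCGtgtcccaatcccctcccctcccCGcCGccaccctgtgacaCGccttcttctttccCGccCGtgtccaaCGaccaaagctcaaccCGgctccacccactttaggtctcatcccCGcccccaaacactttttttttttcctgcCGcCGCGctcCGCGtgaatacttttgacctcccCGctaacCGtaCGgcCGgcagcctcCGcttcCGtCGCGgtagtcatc
Rpl22l1 (chr3:28805258-28805507, plus strand): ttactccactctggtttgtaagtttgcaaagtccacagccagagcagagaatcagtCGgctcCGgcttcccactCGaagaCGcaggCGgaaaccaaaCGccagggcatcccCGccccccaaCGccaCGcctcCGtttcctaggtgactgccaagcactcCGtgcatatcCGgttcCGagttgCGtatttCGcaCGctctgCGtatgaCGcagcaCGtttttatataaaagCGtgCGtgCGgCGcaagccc
Cngb1 (chr8:95306586-95306835, minus strand): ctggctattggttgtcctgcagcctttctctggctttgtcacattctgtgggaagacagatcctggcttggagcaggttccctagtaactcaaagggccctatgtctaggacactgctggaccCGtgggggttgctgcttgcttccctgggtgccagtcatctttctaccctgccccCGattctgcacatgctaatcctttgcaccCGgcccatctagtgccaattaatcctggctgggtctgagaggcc
Krtap31-1 (chr11:99907670-99907919, plus strand): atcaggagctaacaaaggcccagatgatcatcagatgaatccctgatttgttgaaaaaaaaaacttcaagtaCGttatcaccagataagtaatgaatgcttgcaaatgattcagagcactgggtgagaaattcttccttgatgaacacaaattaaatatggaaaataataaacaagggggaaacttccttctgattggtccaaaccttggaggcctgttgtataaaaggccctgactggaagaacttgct
The Med6 run holds 24 CG and the Rpl22l1 run 23, against 3 in Cngb1 and 1 in Krtap31-1. All 4 genes had a shared region at the start, which the choice required. The folds were 7.87 in Control 1 and 5.42 in Bmal1 CKO 2 at Med6, and 5.89 and 4.57 at Rpl22l1. At Cngb1 they were 3.64 and 2.56, and at Krtap31-1 7.61 and 5.85, so a CG-poor promoter could carry a high or a low fold.

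Most regions lay at gene starts, close to and just inside the gene. The strand was known for 17492 of the 21900 protein-coding genes (79.9%), those with a promoter in the RefSeq table. No gene of chromosome 18 (511 genes, 344 regions) is among them, so shares by start, far end, facing pair, CG content or motif leave that chromosome out. Of the 9703 regions whose nearest gene had a known strand, 8774 (90.4%, 95% Wilson interval 89.8% to 91.0%) were nearest to the start and 929 (9.57%) to the far end. The interval covers counting error over regions only. The nearest gene of the other 2326 regions had no known strand. The median distance from the Control 1 summit to the nearest end was 231 bp (quartiles 92 and 466), and 3267 summits (27.2%) lay within 100 bp. The region nearest to a start had its summit at a median of 139 bp inside the gene, and 6494 of 8774 (74.0%) were inside. Start here means the outermost annotated base of the gene, and a promoter within 100 bp of it was used for 13537 of the 17492 genes. A summit at a start listed further in counts as inside the gene, and the part of this in the 74.0% was not tested. The fullest bin of 100 bp was the first inside the start, with 1578 regions, against 1048 in the first 100 bp upstream. At 200 to 300 bp there were 246 upstream (2.80%) and 1003 inside the gene (11.4%).

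The Bmal1 CKO 2 peak has to overlap the Control 1 peak, so the rule holds its summit near the same end, and the next values are descriptions. In 11742 of 12029 regions (97.6%) it lay within 1 kb of a gene end, at a median distance of 231 bp. Both summits were at most 100 bp apart in 5600 regions (46.6%), with a median separation of 112 bp (quartiles 44 and 243). At starts the separation had a median of 121 bp and at far ends 65 bp, where peaks were narrower. The median width in Control 1 was 638 bp at starts and 325 bp at far ends, and in Bmal1 CKO 2 501 bp and 285 bp.

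**Figure D1:**
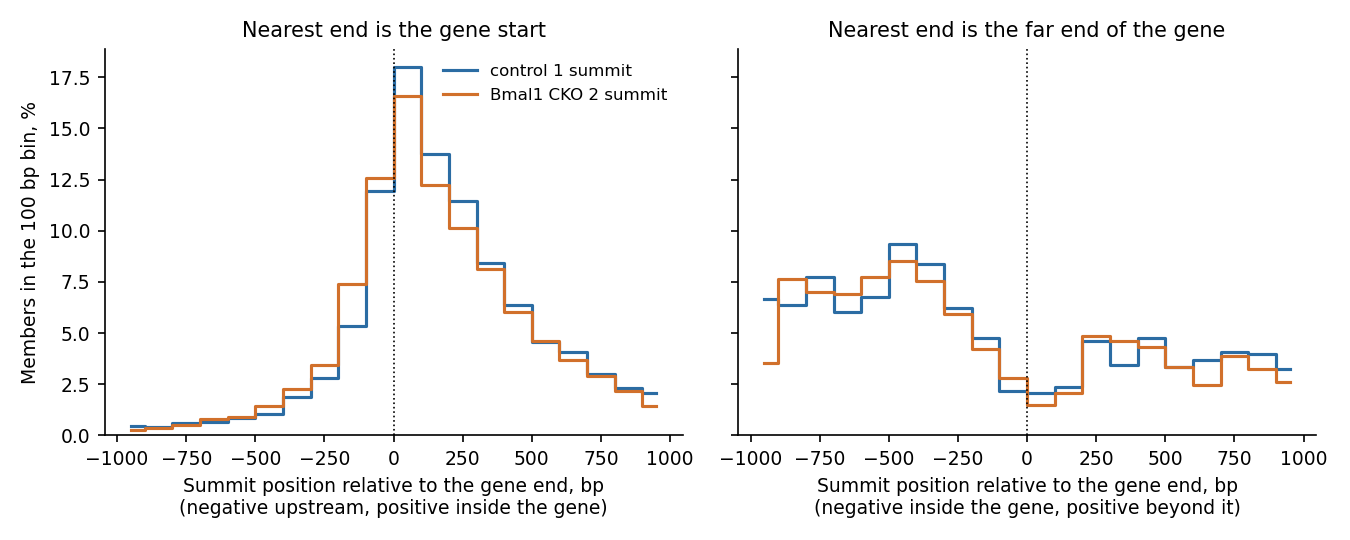
Share of the shared regions (y axis, %) by summit position in bins of 100 bp relative to the nearest gene end (x axis, bp), for regions nearest to a start (left) and to a far end (right), in Control 1 (blue) and Bmal1 CKO 2 (orange). At starts both libraries peak in the first 100 bp inside the gene (1578 and 1457 regions), and at far ends the 100 bp on either side of the end hold 2.15% and 2.05% in Control 1.

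Regions at far ends did not pile up at the end itself. Only 105 of 929 (11.3%) had their summit within 200 bp of it, compared with 4318 of 8774 (49.2%) at starts. The first 100 bp inside and beyond the far end held 20 and 19 regions, whereas the bin 400 to 500 bp inside held 87. Of the 929, 127 (13.7%) were also within 1 kb of another gene's start, and 141 (15.2%) of any listed start. No listed start of any gene and no gene of unknown strand was within 1 kb of 780 (84.0%). The median folds of all 929, 3.67 in Control 1 and 2.94 in Bmal1 CKO 2, were below those at starts (4.16 and 3.09).

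Gene-end peaks listed by 1 long library alone were nearest to a start less often. Among 6692 such peaks of Control 1, 64.1% of those at genes of known strand were nearest to the start, and among 2274 of Bmal1 CKO 2 59.1%. Within 200 bp of an end lay 45.1% of the shared regions, 26.4% of the peaks of Control 1 alone and 22.6% of those of Bmal1 CKO 2 alone. The peaks of Control 1 alone were weaker, with a median fold of 2.96 against 4.08, and narrower, with 275 bp against 600 bp. In the same range of Control 1 fold, 2 to 3, the start was nearest for 86.1% of shared regions and for 66.4% of the peaks of Control 1 alone. From 3 to 4 the shares were 88.0% and 61.9%, and from 4 to 5 91.4% and 60.5%. Width was not held alike in these ranges, and a wider peak meets the overlap rule more easily. These are shares of regions within the same pair of libraries, which are not replicates, and the difference was not tested.

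**Figure D2:**
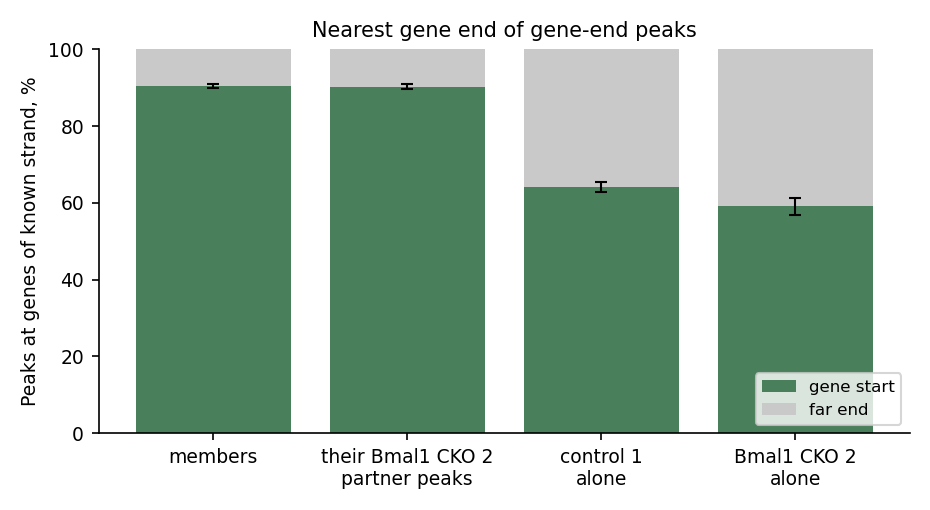
Share of gene-end peaks at genes of known strand (y axis, %) whose nearest end is the gene start (green) or the far end (grey), with 95% Wilson intervals of the start share that cover counting error only. The shared regions stand at 90.4% and their Bmal1 CKO 2 partner peaks at 90.3%, and the peaks of 1 list alone at 64.1% and 59.1%.

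Folds were higher in Control 1 at most regions, and stacked fragments were more in Bmal1 CKO 2. The fold had a median of 4.08 in Control 1 (lowest 1.62, highest 10.8) and 3.07 in Bmal1 CKO 2 (lowest 1.52, highest 8.63). It was higher in Control 1 at 11130 of 12029 regions (92.5%). Over all peaks of each list the medians were 3.54 and 2.96. The median number of stacked fragments was 31 over a background of 6.38 in Control 1, and 33 over 9.76 in Bmal1 CKO 2, and 7886 regions (65.6%) had more fragments in Bmal1 CKO 2. Depth differs between these libraries in the same direction as the fragment numbers, and its part in the fold was not tested. Just inside the limit of 1 kb, Fam221a at 999 bp had folds of 5.31 and 3.64, Pla2g12b and Vmn2r91 at 1000 bp had 2.91 and 2.42, and 6.28 and 2.93. Just outside, at 1001 bp, Lrp4 had 2.44 and 2.15, Myrfl 2.78 and 2.45, and Fndc11 2.91 and 2.37.

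**Figure D3:**
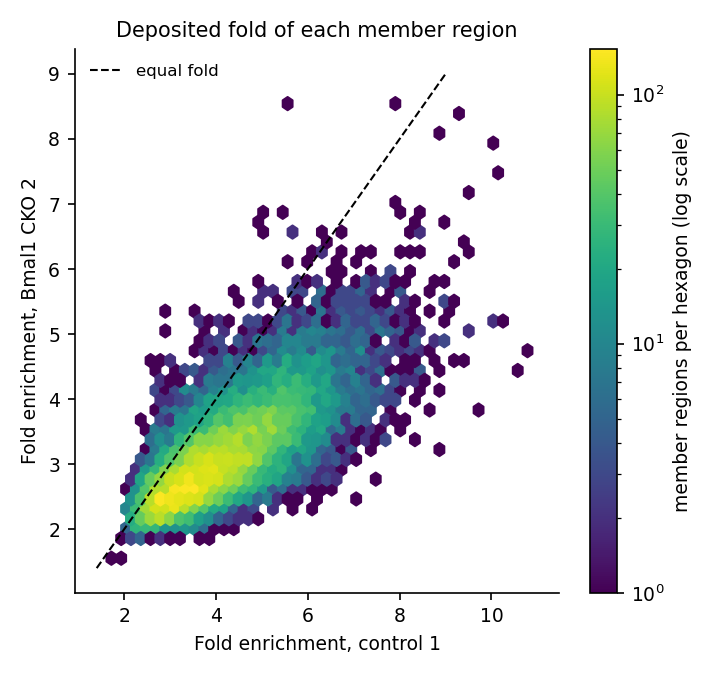
Deposited fold enrichment of each of the 12029 regions in Control 1 (x axis) and Bmal1 CKO 2 (y axis), as the number of regions per hexagon on a log colour scale, with a dashed line of equal fold. Most regions lie below the line, and 92.5% have the higher fold in Control 1.

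The strongest regions, by the lower of their 2 folds, included several at genes with predicted names. At Ermard (chromosome 17, 15041551 to 15090045), beside Tcte3, 40 fragments over a background of 3.46 gave a fold of 9.19 in Control 1, and 56 over 5.83 gave 8.34 in Bmal1 CKO 2. The zinc finger gene Zfp955b (chromosome 17, 33289521 to 33307239) had 52 fragments and a fold of 10.04 in Control 1, and 63 and 7.84 in Bmal1 CKO 2. Its Control 1 summit was 253 bp inside the start and the Bmal1 CKO 2 summit 156 bp from there. Srp54c, which encodes a copy of a signal recognition particle protein, had folds of 9.49 and 7.14. Thoc1, whose product helps export messenger RNA, had 8.04 and 6.91, with both summits 6 bp apart. Of the top 10, 5 were at genes named only as predicted (Gm3448, Gm8108, Gm6712, Gm13289 and LOC115488283), against 585 of all 12029 regions (4.86%). Fam205a4, also in the top 10, and Gm3448 had the highest backgrounds of these regions in Control 1, 7.52 and 9.46. Where a gene has near-identical copies, short reads cannot be placed with certainty, and whether that touches these values was not tested.

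In all, 11557 protein-coding genes had a shared region at an end, 52.8% of the 21900, and 8878 of those with known strand had one at the start (50.8%). At the far end it was 1313 (7.51%). Control 1 had an end peak at 69.5% of all genes and Bmal1 CKO 2 at 58.9%. Of the 11974 genes with an end peak in both lists, 540 had no shared region: 177 had the peaks at different ends, and 52 had a peak that was also in a short list. A single end held 2 or more shared regions in 1289 of 12562 cases (10.3%).

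Genes with a shared region were longer and stood closer to a neighbour. Their median length was 23935 bp, compared with 10836 bp for genes without one. The share with a region was 23.3% of genes up to 2 kb long and 65.9% of genes over 100 kb. At the start the shares were 21.7% and 64.7%, while the far end had a region in 16.5% of genes up to 2 kb, whose windows overlap, and in 4.82% to 7.33% of longer ones. The median distance to the nearest neighbouring gene was 3493 bp for genes with a region and 7806 bp for the others. The genes without one include most olfactory and vomeronasal receptor genes, which were not left out here. The median lengths of all genes of these 2 classes were 950 bp and 960 bp, and their median distances to a neighbour 13154.5 bp and 25752 bp. By the distance to the gene upstream, the start held a region in 71.6% of genes with a neighbour up to 1 kb away, in 60.8% of those whose upstream neighbour adjoined or overlapped, and in 44.1% to 51.5% of those with a wider gap.

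Regions at the ends of 2 or more genes were mostly at starts on opposite strands. Of the 12029 regions, 1460 (12.1%) lay within 1 kb of the ends of 2 or more genes, compared with 8.17% of the peaks of Control 1 alone and 6.99% of those of Bmal1 CKO 2 alone. Among 1089 regions with exactly 2 genes of known strand, 852 (78.2%) were at 2 starts on opposite strands, 194 (17.8%) at a start and a far end, 22 at 2 far ends and 21 at 2 starts on the same strand. Viewed from the genes, 581 pairs that do not overlap had starts facing away from each other, at most 1 kb apart. A single region lay within 1 kb of both starts in 496 of these pairs (85.4%), and 79 pairs (13.6%) had none. Because paired starts are close together, the window of 1 kb puts nearly any region at one start at the other too. Genes of such pairs had a region at the start in 992 of 1154 cases (86.0%), where a region at both starts counts for both genes. Other genes of known strand had one in 7886 of 16338 (48.3%). The starts of the pairs with such a region were a median of 94.5 bp apart (101 bp over all 581). The Control 1 summit lay between them in 109 of 558 regions (19.5%) and the Bmal1 CKO 2 summit in 103 (18.5%).

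The histone pair H2ac11 and H2bc11 (chromosome 13) is an example in which 249 bp separate the starts. The run of 250 bases before the H2bc11 start covers the space between both genes, with CG in capitals.
H2bc11 (chr13:22042948-22043197, plus strand): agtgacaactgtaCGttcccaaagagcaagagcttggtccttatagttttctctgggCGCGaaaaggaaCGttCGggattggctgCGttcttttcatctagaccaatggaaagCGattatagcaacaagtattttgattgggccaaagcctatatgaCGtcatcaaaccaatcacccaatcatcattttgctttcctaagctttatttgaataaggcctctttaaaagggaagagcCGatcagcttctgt
Its region had 54 fragments over a background of 5.58 in Control 1, a fold of 8.36, with the summit 108 bp inside H2bc11. In Bmal1 CKO 2 it had 66 over 8.92, a fold of 6.75, with the summit at 22043295, 11 bp nearer to the start. Neither summit lay between the starts. The annotated spans of some pairs overlap at their 5′ ends, as at Ppwd1 and Cenpk, a centromere protein gene, which shared a region with folds of 7.17 and 6.29. Tmem167 and Xrcc4, which encodes a DNA end joining factor, have starts 59 bp apart and shared one with 7.55 and 5.83. Ap5m1 and the exocyst gene Exoc5, which overlap too, had 7.44 and 5.74, and so do Dhx57 and Morn2, with 6.79 and 6.22. Esf1 and Ndufaf5, an assembly factor of respiratory complex I, start 26 bp apart and had 31 fragments in Control 1 (fold 6.30) and 47 in Bmal1 CKO 2 (5.73). The kinesin gene Kif15 and 1110059G10Rik had 7.20 and 5.73.

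Few genes had a shared region at both ends. Among 19304 genes longer than 2 kb, 631 (3.27%) had one at both ends, 10321 (53.5%) at 1 end and 8352 (43.3%) at neither. Of genes with a region at the start 6.15% also had one at the far end, and of genes without one at the start 6.33%. In 132 of the 517 genes of known strand with both (25.5%), the far-end region also lay at a start, or at an end of unknown strand, of another gene. The median distance to the nearest neighbour was 743 bp for the 631 genes and 4312 bp for all genes over 2 kb, while their median lengths were 21458 bp and 21337 bp. Ranked by the lowest of the 4 folds of a gene (2 ends in 2 libraries), Scai (chromosome 2, 39066214 to 39190758) came first and the predicted gene Gm40363 next. At Gm40363, whose strand is unknown, the folds were 8.97 and 5.85 at one end and 4.96 and 5.59 at the other. The start of Scai had folds of 4.97 and 5.21, and its far end, beside Golga1, 8.12 and 5.42. G2e3, a ubiquitin ligase gene, had 5.83 and 4.86 at the start and 6.50 and 5.27 beyond the far end, beside Scfd1. The zinc finger gene Zfp329 had 6.92 and 4.36 at the start and 6.99 and 4.57 at the far end, with no other gene there.

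Gene classes differed in how many members had a shared region, beside 52.8% over all protein-coding genes. Many classes of basic cell functions stood above it. All 11 chaperonin subunits, which fold new proteins, had one, as had 42 of 45 pre-mRNA splicing factors (93.3%), 44 of 49 proteasome subunits (89.8%), 50 of 56 translation initiation factors (89.3%) and 52 of 59 Rab GTPases (88.1%), which direct vesicle traffic. The aminoacyl-tRNA synthetases had 33 of 38, Mediator 26 of 30, mitochondrial ribosomal proteins 67 of 78, cytosolic ribosomal proteins 72 of 86, and nuclear-encoded subunits of oxidative phosphorylation 68 of 83. Examples are the proteasome gene Psma1, with 30 fragments in Control 1 (fold 6.30) and 45 in Bmal1 CKO 2 (5.41), and the initiation factor gene Eif2s2, with 39 (6.56) and 52 (5.52). The mitochondrial ribosomal gene Mrps30 had 36 fragments (6.70) and 40 (5.51), and the splicing factor gene Srsf11, beside Lrrc40, 37 (6.51) and 45 (5.60). Zinc finger genes of the Zfp and Zbtb names had 327 of 438 (74.7%).

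Classes of specialised tissues and of chemical senses stood below the share over all genes. Vomeronasal receptors, which sense pheromones, had 9 of 353 (2.55%), olfactory receptors 117 of 1110 (10.5%), and defensins, which kill microbes, 8 of 71 (11.3%). Cytochrome P450 genes had 24 of 92, Pramel genes 13 of 50, collagens 13 of 44 and keratins 16 of 53. The Hox genes, which pattern the body axis, had 9 of 39 (23.1%), and 27 of the 39 had an end peak of Control 1 alone, compared with 6062 of all 21900 genes. Of genes active in neurons, 32 of 94 potassium channel genes (34.0%) and 36 of 88 neurotransmitter receptor genes (40.9%) had one. Keratin-associated proteins of hair, in contrast to keratins, had 32 of 56 (57.1%). They are short genes (median 833 bp), and 31 of the 32 were counted at both ends, from 36 distinct regions. Histone genes made in S phase had 43 of 63, of which 39 were counted at both ends for the same reason. So were 93 of the 117 olfactory receptor genes. Up to 2 kb long are 959 of the 1110 olfactory receptor genes, all 56 keratin-associated protein genes and 58 of the 63 histone genes. Of all genes of that length 23.3% had a region, less than the shares of the keratin-associated and histone genes. The olfactory receptors with a region had median folds of 4.04 in Control 1 and 3.22 in Bmal1 CKO 2, and all genes with one 4.24 and 3.14. These olfactory medians are the values of 17 fragments over the lowest background, 3.46, in Control 1, and 21 over the lowest, 5.83, in Bmal1 CKO 2. The medians over all shared regions were 31 fragments over 6.38 and 33 over 9.76, so similar folds do not mean similar numbers of fragments.

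**Figure D4:**
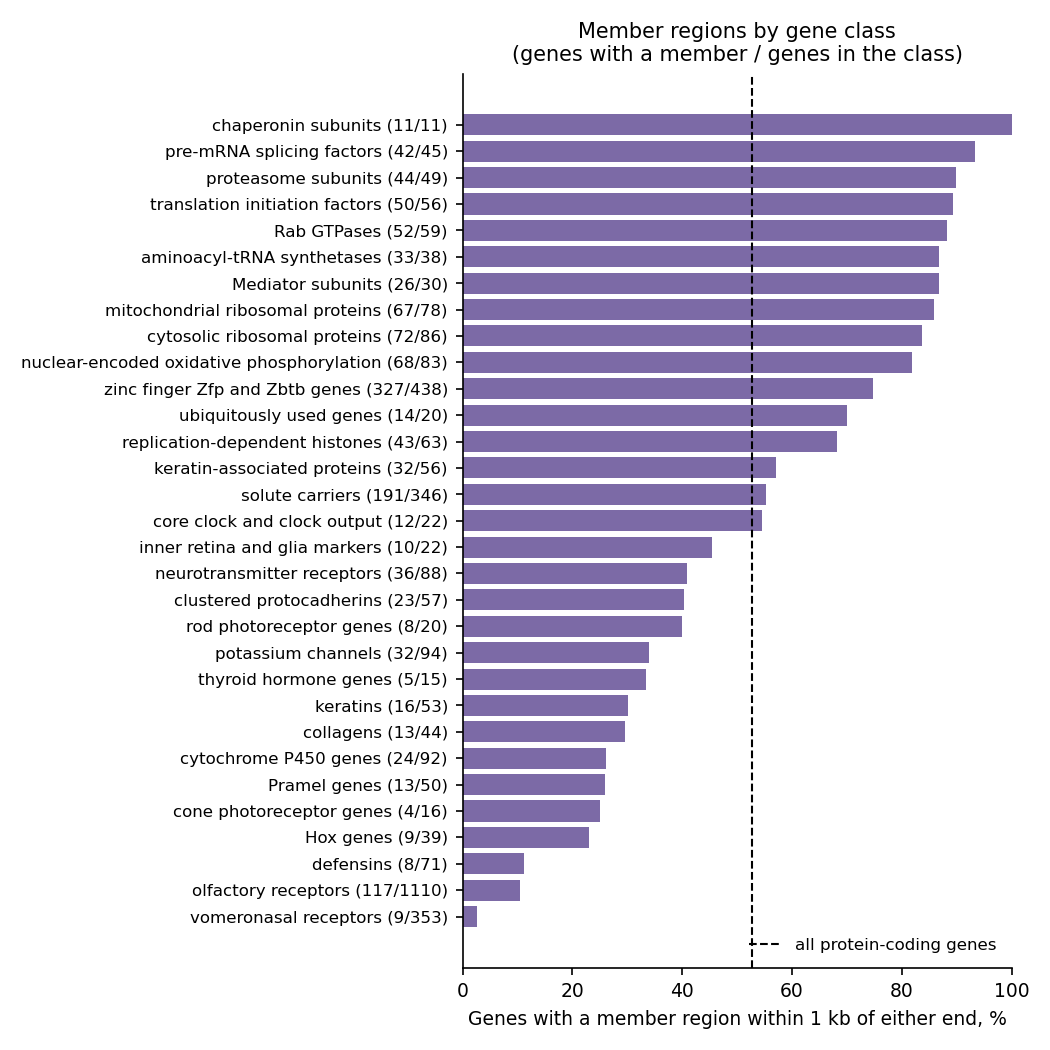
Share of the genes of each class (x axis, %) with a shared region within 1 kb of either end, with numbers in brackets, and the share over all protein-coding genes as a dashed line (52.8%). The 10 classes from the chaperonin to oxidative phosphorylation lie at 81.9% to 100%, and chemosensory receptors and defensins at 2.55% to 11.3%.

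The core clock and clock output genes were near the share over all genes, with 12 of 22 (54.5%). Ciart had 3 regions, at the start with 34 fragments in Control 1 (fold 3.93), at 522 bp upstream with 29 (3.34) and inside the far end with 30 (3.39). In Bmal1 CKO 2 the first and second share 1 peak. The first Control 1 summit was 37.5 bp from the centre of the nearest E-box printed above, while the Bmal1 CKO 2 summit (43 fragments, fold 3.23) was 373.5 bp away. At Tef both summits fell on the same base, 54.5 bp from the E-box, with 36 fragments in Control 1 (3.29) and 35 in Bmal1 CKO 2 (2.35). At Cry1 the summits lay 676.5 bp and 640.5 bp from the E-box, inside the gene, with 33 fragments (4.63) and 44 (4.40), in Control 1 and Bmal1 CKO 2. At Bhlhe41 they lay 795.5 bp and 646.5 bp from it, upstream, with 37 (3.02) and 43 (2.59). Per3 had 38 fragments and 36, with summits 11 bp apart, and Rorb, a nuclear receptor gene, 2 regions at its start. Npas2 had an end peak in both lists that did not make a shared region.

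Thyroid hormone and cone genes had fewer shared regions. Of the 15 thyroid hormone genes 5 had one (33.3%), among them Dio2, Klf9, Rxrg and Slc16a10. The region of Dio2, the gene of the deiodinase that makes active hormone, lay 984 bp inside the start, near the limit of 1 kb, with 33 fragments over 4.02 in Control 1 and 26 over 7.08 in Bmal1 CKO 2. Among 16 cone genes 4 had one: Gnb3, Guca1a, Rxrg and Sall3. That of Guca1a, a guanylate cyclase activator gene, was at the far end, 250 bp inside, with 37 fragments in Control 1 and 39 in Bmal1 CKO 2. Rod genes had 8 of 20 (40.0%), markers of inner retina and glia 10 of 22 (45.5%), and genes used in nearly all cells 14 of 20 (70.0%). Sets of this size give shares that a few genes decide, and no difference from 52.8% was tested.

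Starts with CG-rich promoters had a shared region more often than CG-poor ones. The ratio of observed to expected CG (the number of CG times the length, over the number of C times the number of G) was taken over 300 bases, 250 before and 50 after the start, for 13537 genes. Where it was under 0.2, 363 of 3431 starts (10.6%) had a region. The share was 24.7% from 0.2 to 0.4, 60.6% from 0.4 to 0.6, 78.1% from 0.6 to 0.8, 85.9% from 0.8 to 1 and 86.8% from 1 up. Median folds were 4.04 in the lowest and 4.42 in the highest of these classes in Control 1, and 3.22 and 3.24 in Bmal1 CKO 2. In the lowest class these medians are the values of 17 fragments over the lowest background, 3.46, in Control 1, and 21 over 5.83 in Bmal1 CKO 2. Over all shared regions the median fragment numbers were 31 and 33, so folds this close do not mean similar numbers of fragments. Promoters with a region had a median of 60.7% G and C, and those of all genes 55.3%. Base content can change how well DNA is copied into a library, and its part in this result was not tested.

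**Figure D5:**
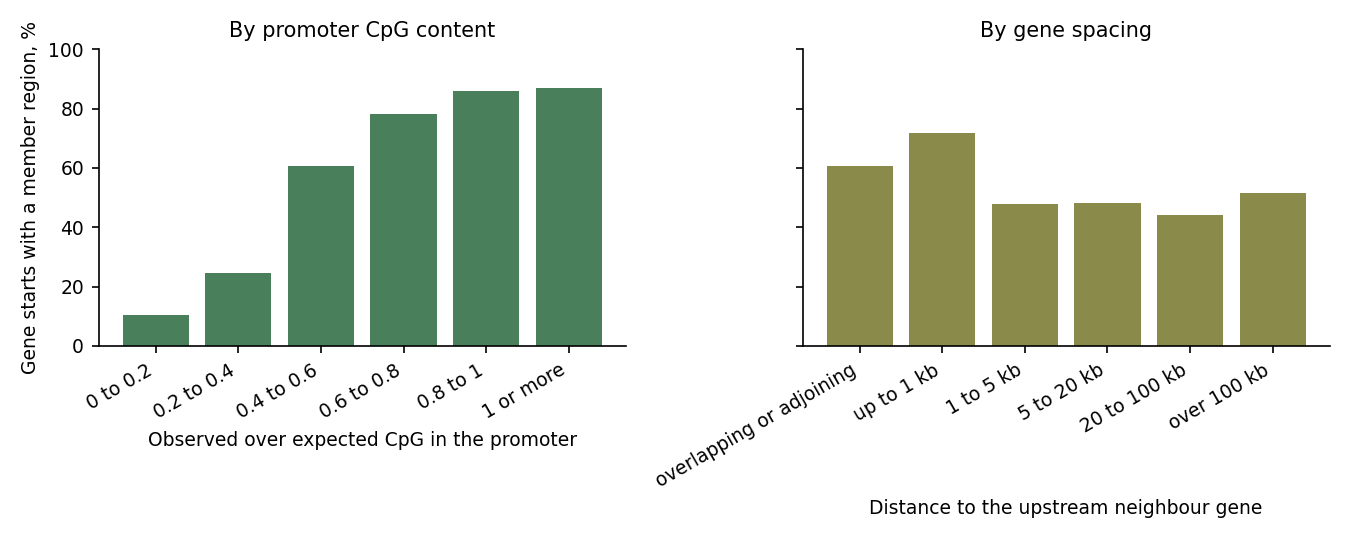
Share of gene starts with a shared region (y axis, %) by the ratio of observed to expected CpG in the promoter (left) and by the distance to the upstream neighbour gene (right). The share is 10.6% in the lowest and 86.8% in the highest class of CpG content, and on the right it is highest, 71.6%, for starts with a neighbour up to 1 kb upstream.

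Of 8 short motifs searched on both strands of the same 300 bases, most were more frequent in promoters with a region, and the TATA box was less so. The E-box CACGTG was found in 768 of 7090 promoters with a region (10.8%) and in 1074 of all 13537 (7.93%). The ETS site CCGGAAGT was in 9.04% and 5.32%, the GC box GGGCGG in 64.9% and 44.5%, the CRE TGACGTCA in 3.78% and 2.47%, the NRF1 site in 2.38% and 1.46%, and the YY1 site AAGATGGC in 4.91% and 3.29%. The CCAAT box (CCAAT) was at 41.4% and 40.6%, and the TATA box TATAAA at 8.34% and 14.8%. Motif matches can overlap each other. Several motifs contain CG, so promoters were also split by CG content at a ratio of 0.6. Among promoters with a ratio of at least 0.6, 12.3% with a region and 10.4% without one held the E-box, and 10.7% and 4.63% the ETS site. Among those under 0.6 the E-box was in 6.91% and 3.61%. The split did not make CG content alike. From 0.6 up the median ratio was 0.842 with a region and 0.787 without one. Under 0.6 it was 0.410 and 0.173, and the part of CG content in the motif shares was not tested. Regions at promoters with an E-box had median folds of 4.28 in Control 1 and 3.15 in Bmal1 CKO 2, and those without it 4.30 and 3.18. With the ETS site they were 4.59 and 3.27, and without it 4.28 and 3.16.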

How the data were processed

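BMAL1 ChIP-seq peak lists of mouse retina were taken as deposited, 1 per library, for 3 control and 3 Bmal1 CKO libraries. Trim Galore, Bowtie2, MACS2 and the build mm10 are named, per the submitters' processing notes; their versions and settings, and whether an input was used, were not found in the labels. The deposited values of a peak are a fold enrichment (a ratio), a −log10 p-value, a −log10 q-value, a score and a summit position. GEO's record ties each list to its library. No read totals were used; fragments at the summit and the background were solved from the deposited fold and p-value (pseudocount of 1, Poisson), and the fragment numbers were whole within 0.02 for 100% of peaks of both long lists.

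Gene ends, and the strand of 17492 genes, came from RefSeq tables of GRCm38.p6; summits are 1-based. Promoters were used where the listed start was within 100 bp of the gene end. The partner of a region is the overlapping Bmal1 CKO 2 peak with the highest fold; 11643 distinct partners were found for 12029 regions. The rule that chose the regions used the peak calls, so no test was made, and counts, medians and shares are descriptions. The regions, the 31 gene lists and the 8 motifs were chosen with earlier results of these data known. Named genes are the 10 regions with the highest lower fold, the 5 such genes with both ends, the 8 such pairs with starts on opposite strands, members of the lists of clock, thyroid and cone genes, the regions beside 1 kb, and the leading gene of each list, of which only part are printed. Under the rule for promoter sequences (E-box present and both summits in the window) only Tef qualified; the other sequences were chosen after their values were seen. Python 3.11.15, numpy 2.4.6, pandas 2.3.3, scipy 1.17.1 and matplotlib 3.10.9 were used. Overlap, distance and fragment recovery were tested on simulated data. The alternatives changed the window, the overlap, the q-value limit, the summit, the gene set and the lists excluded. The values of 1 gene of these lists are not reported here.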

Additional observations from a re-analysis of the deposited data

How the results depend on the processing

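With a window of 500 bp, the median distance was 161 bp, 94.1% of regions were nearest to a start, 10.2% were at 2 or more genes and 226 genes had both ends. With 2 kb these values were 313 bp, 84.5%, 14.3% and 1395. A −log10 q-value of at least 5 in both long lists left 6092 regions at 6605 genes, a median of 187 bp, 95.1% at starts, 14.2% at 2 or more genes and 106 genes with both ends. With both summits within 1 kb the median was 222.5 bp. Without genes of predicted names (Gm or Rik) 91.0% were at starts and 11.5% at 2 or more genes. Genes of any length with both ends numbered 1005. Numbers of regions and genes under the other alternatives stayed within 1.5 times. Leaving out 1 short list at a time gave 12030 to 12076 regions and 631 to 640 genes with both ends. Without Control 1 or without Bmal1 CKO 2 the rule gives no region. No paired analysis was possible because the result comes from no test. Each value rests on 1 library per genotype, and peaks under the authors' threshold were not listed, so absence from a list is not absence of signal.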

Other observations

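Shared gene-end regions were spread over the chromosomes, with some exceptions. Chromosome 12 had one at 64.4% of its genes, chromosome 18 at 62.8% and chromosome 3 at 61.0%. The X chromosome had one at 41.1% of 966 genes and Y at 1.56% of 256. Chromosome 7 had 41.2% of 2030 genes, and 49.3% when its 417 olfactory and vomeronasal receptor genes were left out, compared with 55.9% of all genes other than these receptors. The small mitochondrial chromosome held 5 regions, at the ends of 8 of its 13 protein-coding genes, which lie side by side.

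Genes with predicted names (Gm, LOC or Rik) had a region less often, 30.8% against 54.8% of other genes, but were more frequent among the strongest regions: 19 of the top 100 and 114 of the top 1000 by the lower fold, against 4.86% of all.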
